A study of Rattus norvegicus with 30 samples.

Results

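The genes described here are 8 genes of the pericellular matrix: the secreted proteases Adamts1, Adamts4 and Adamts9, the thrombospondins Thbs1 and Thbs2, the CCN proteins Ccn1 and Ccn2, and the protease inhibitor Timp1. They were found through the transcript accession of each array probe, and each of the 8 was represented by 1 probe. All 8 were bright enough to be tested, among 18333 genes and unnamed accessions tested of 26785 on the array. Male Sprague Dawley rats, 16 to 18 weeks old, gave the left ventricular RNA. The animals were fed chow or a diet high in sucrose (8 to 10 weeks), which the submitters describe as insulin resistant, a state that was not examined here. In both diet groups the hearts were removed under chloral hydrate anaesthesia and chilled in Krebs-Henseleit buffer. The non-perfused hearts were dissected and frozen at once. Perfused hearts, which the design describes as reperfused after cold arrest, worked outside the body for 60 min at normal temperature and oxygen, against an afterload of 100 cm of water and with a filling pressure of 15 cm of water. All perfused hearts received the ketone bodies hydroxybutyrate (10 mmol/L) and acetoacetate (1 mmol/L), propionate at 2 mmol/L and calcium at 2.5 mmol/L. To this either glucose or mannitol, a sugar alcohol that served as osmotic control, was added at 25 mmol/L. This made 6 groups of 5 hearts, which are biological replicates per the labels, and 30 one-colour arrays, 1 for each heart.

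ADAMTS proteases are secreted metalloproteases that carry thrombospondin repeats and cut large proteoglycans of the matrix, such as versican and aggrecan. Thrombospondins and CCN proteins are matricellular: they are secreted, bind matrix, growth factors and cell surface receptors such as integrins, CD36 and CD47, and alter how cells attach and signal without serving as structural fibres. Ccn1 and Ccn2 are textbook targets of the mechanically regulated coactivators YAP and TAZ, which act through TEAD factors, and of the serum response factor SRF. Timp1 inhibits matrix metalloproteinases, and in the heart Ccn2, Thbs1 and Timp1 are best known from fibrosis and scar formation.

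The 250 bases before the transcription start are shown for the 4 genes below, because Adamts1 and Ccn1 had the largest rises of the 8 and because Ccn1, Ccn2 and Thbs1, which rose with them, hold the TEAD motif there. The sequences are those of RefSeq on the GRCr8 build, written 5′ to 3′ on the strand of the gene, with capitals marking each match to the TEAD motif CATTCC or its reverse complement.
Adamts1 (chr11:38427385-38427634, minus strand): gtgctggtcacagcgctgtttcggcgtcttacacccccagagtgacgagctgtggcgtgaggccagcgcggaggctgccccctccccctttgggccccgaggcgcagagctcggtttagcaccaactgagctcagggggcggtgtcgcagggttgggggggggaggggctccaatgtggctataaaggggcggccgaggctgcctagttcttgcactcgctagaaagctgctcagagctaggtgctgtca
Ccn1 (chr2:237225690-237225939, minus strand): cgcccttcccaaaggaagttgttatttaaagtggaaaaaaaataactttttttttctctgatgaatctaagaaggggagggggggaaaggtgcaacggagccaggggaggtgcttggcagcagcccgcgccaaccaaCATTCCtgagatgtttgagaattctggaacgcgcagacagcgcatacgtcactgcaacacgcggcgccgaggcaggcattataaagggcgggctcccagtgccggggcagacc
Ccn2 (chr1:22624615-22624864, minus strand): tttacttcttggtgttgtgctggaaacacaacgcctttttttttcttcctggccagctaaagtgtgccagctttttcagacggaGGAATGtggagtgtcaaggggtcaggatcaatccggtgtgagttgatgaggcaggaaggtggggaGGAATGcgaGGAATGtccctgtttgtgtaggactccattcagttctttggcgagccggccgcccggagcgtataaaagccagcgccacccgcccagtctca
Thbs1 (chr3:125510000-125510249, plus strand): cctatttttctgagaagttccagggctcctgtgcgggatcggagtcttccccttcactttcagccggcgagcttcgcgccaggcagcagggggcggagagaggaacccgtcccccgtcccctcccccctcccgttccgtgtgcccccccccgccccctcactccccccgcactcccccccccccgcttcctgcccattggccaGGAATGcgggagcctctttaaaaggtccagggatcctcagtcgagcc
A promoter window of 300 bases, of which 50 lie after the start, was at hand for 7 of the 8 genes, all but Thbs2. Both strands were searched for CATTCC, for the AP-1 motif TGANTCA, for the cyclic AMP response element TGACGTCA and for the CArG box bound by SRF. No motif overlapped another. Ccn2 had 3 TEAD matches, at -166 to -161, -101 to -96 and -92 to -87 from the start. Ccn1 had 1 at -113 to -108, Thbs1 had 1 at -47 to -42, and Timp1 had 1 at -225 to -220. The TEAD motif was found in 14.2% of 33469 rat promoter windows of this length. The windows of Adamts1, Adamts4 and Adamts9 held no match to any of the 4 motifs, and none of the 7 windows held TGANTCA, TGACGTCA or a CArG box. These occurred in 7.33%, 1.83% and 1.64% of all windows. A match describes the letters only, and binding was not measured.

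Levels are given as log2 of the processed signal minus the 75th percentile of the array, so that 0 is the level of that percentile. They can be compared between arrays for 1 gene but not between genes, whose probes differ. Between 48.8% and 75.4% of the probes of an array were well above background. All 8 cardiomyocyte markers on the array, among them Myh6 and Tnnt2, were well above background on all 30 arrays. On 4 arrays the negative control spots were noisy, with a standard deviation above 8 intensity units: replicate 2 of the chow and replicates 1 and 5 of the sucrose non-perfused hearts, and replicate 5 of sucrose mannitol. The groups were spread over 4 slides that held all 6 of them, while replicate 1 of sucrose mannitol had a slide to itself. Row 1 of the slides held every non-perfused and every chow mannitol array, and row 2 held every glucose array and 4 of the 5 sucrose mannitol arrays. Row and perfusion therefore cannot be told apart for glucose, and hardly for sucrose mannitol. Row and diet can likewise hardly be told apart between the mannitol groups. The words rose and fell stand for a Benjamini-Hochberg adjusted p under 0.05 over all 18333 genes in limma, with n = 5 arrays in each group.

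Perfusion of the isolated heart was accompanied by large rises of 5 of the 8 transcripts. In each of the 4 comparisons of a perfused group with the non-perfused group of its diet, Adamts1, Adamts4, Thbs1, Ccn1 and Ccn2 rose. Of all genes tested, 3.24% rose and 1.37% fell in all 4. Adamts1 rose 12- to 15.3-fold, Ccn1 11.1- to 12.4-fold and Ccn2 3.36- to 4.62-fold. Thbs1 was 2.08- to 3.45-fold above an upper bound of its non-perfused level. Adamts4, which was above background on only 1 of 5 non-perfused arrays of each diet, had a measured difference of 3.34- to 5.59-fold. Timp1 rose in 3 comparisons and Thbs2 in 2, each by at most 2.04-fold, and Adamts9 did not pass the test in any. None of the 8 fell. Adamts4 and Thbs1 were bright enough to be tested only through the perfused groups, where they are high, so their rise is partly set by that filter. The other 6 were above background on all 30 arrays, and 3, 5, 4 and 5 of them rose, for mannitol and glucose in chow and then in sucrose hearts.

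The 8 genes were chosen with earlier results of these data known. Their counts beside those of all genes are therefore a description and no test of the set. By comparison, 5 of 8 rose in chow hearts perfused with mannitol, where 4.83% of all genes rose, 3.65% fell and 8.49% did either. In chow hearts perfused with glucose 7 of 8 rose, where 5.47% of all genes rose, 4.04% fell and 9.50% did either. In sucrose hearts 6 of 8 rose with mannitol, where 5.53% of all genes rose, 5.67% fell and 11.2% did either. With glucose 7 of 8 rose in sucrose hearts, where 5.54% of all genes rose, 3.14% fell and 8.68% did either. Without the 4 noisy arrays the counts were 5, 7, 5 and 5 in this order. The arrays of the perfused group all lay above those of the non-perfused group for 5, 6, 5 and 5 of the 8 genes in this order, and for 5.00%, 5.18%, 4.36% and 4.75% of all genes. The median change of the 8 genes on the log2 scale was 1.88, 2.12, 2.10 and 1.94, and that of all genes was -0.01, -0.05, -0.04 and -0.03. Each median of the 8 lies midway between the changes of Adamts4 and Ccn2. It thus rests partly on Adamts4, whose non-perfused signals were mostly not above background, and Thbs1 enters it too. Mannitol and glucose comparisons of 1 diet share their non-perfused arrays. All hearts were chilled in buffer. Rewarming and reperfusion after the cold arrest, work outside the body and 60 min of buffer in place of blood came together in the perfused hearts and cannot be told apart.

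**Figure D1:**
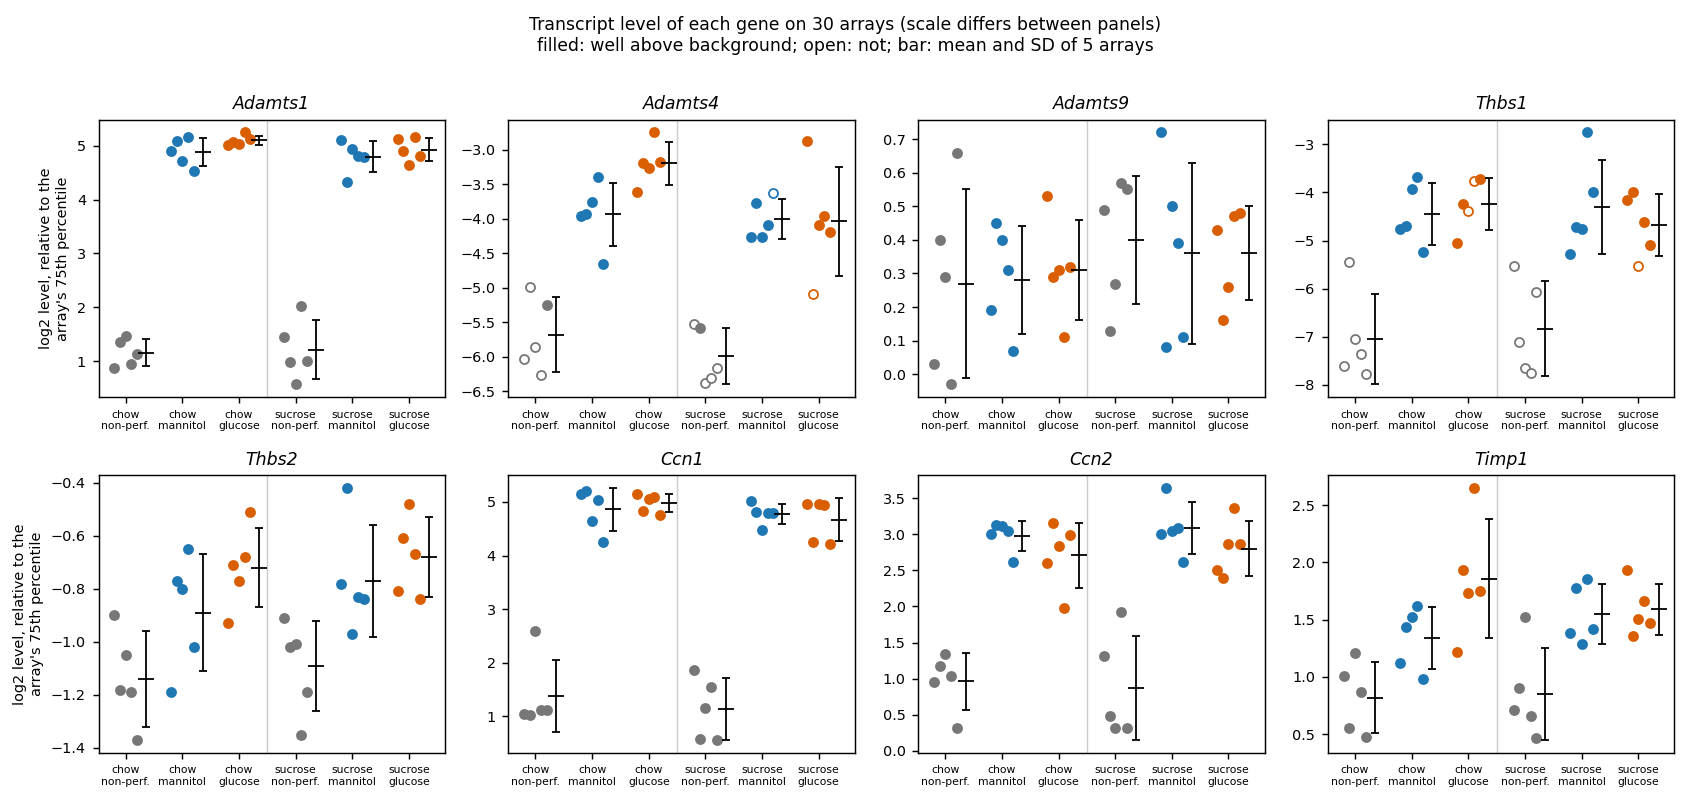
Level of the 8 genes (log2, relative to the 75th percentile of each array, with a separate scale for each panel) on all 30 arrays, in 6 groups of 5. Each point is 1 array, open where the probe was not well above background, and the bars are the mean and SD of the group. The perfused arrays lie above all non-perfused arrays of their diet for Adamts1, Adamts4, Ccn1 and Ccn2, while the groups of Adamts9 overlap.

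Adamts1, the protease known for its fast induction by inflammatory and hormonal signals, had the largest change of the 8 in 3 of the 4 comparisons. On the chow non-perfused arrays its level was 0.88, 1.36, 1.47, 0.95 and 1.13 (replicates 1 to 5). With mannitol it was 4.91, 5.09, 4.71, 5.16 and 4.53, and with glucose 5.01, 5.07, 5.03, 5.25 and 5.12. Every perfused chow heart was thus more than 3 log2 units above every non-perfused chow heart, and the glucose hearts were the least spread group (SD 0.09). On the sucrose non-perfused arrays the level was 1.45, 0.99, 0.57, 2.03 and 1.01, with mannitol 5.10, 4.33, 4.94, 4.82 and 4.80, and with glucose 5.13, 4.90, 4.65, 5.17 and 4.81. The non-perfused sucrose hearts were the most spread group (SD 0.55), with replicate 4 highest, and they did not overlap the perfused ones. In limma, Adamts1 rose 13.2-fold with mannitol and 15.3-fold with glucose in chow hearts (log2 changes 3.72 and 3.94). It rose 12-fold and 13.2-fold in sucrose hearts (3.59 and 3.72). The SE was 0.19 and the adjusted p at most 4.59e-13 in all 4. Its rise ranked between 16 and 22 among the 18333 genes. Within the 4 slides the difference ran from 2.30 to 4.30 over the 4 comparisons, above 0 on every slide. More cells of a type and more RNA per cell cannot be told apart in whole ventricle, here or for the other genes.

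Adamts4, a protease that cuts aggrecan and versican, was near the detection limit before perfusion, so its folds rest on weak signals. The non-perfused levels were -6.03, -4.99, -5.86, -6.27 and -5.25 in chow and -5.52, -5.58, -6.38, -6.31 and -6.17 in sucrose hearts, and 1 of 5 arrays in each group was well above background. Perfused chow hearts had -3.96, -3.93, -3.76, -3.39 and -4.66 with mannitol and -3.62, -3.19, -3.26, -2.75 and -3.18 with glucose, all well above background. Perfused sucrose hearts had -4.26, -3.78, -4.26, -4.09 and -3.63 with mannitol and -2.87, -5.09, -4.09, -3.96 and -4.20 with glucose, each with 4 of 5 arrays above background. No perfused array overlapped the non-perfused arrays of its diet, and sucrose glucose was the widest group (SD 0.79), with replicate 1 high and replicate 2 low. Adamts4 rose in all 4 comparisons. The measured differences, mostly against signals not above background, were 3.34-fold and 5.59-fold in chow hearts (1.74 and 2.48) and 3.97-fold and 3.87-fold in sucrose hearts (1.99 and 1.95), with an SE of 0.30 and an adjusted p of at most 0.000206 in limma. Within slides the difference ran from 0.48 to 3.52 and was above 0 on all 4 slides in each comparison. The call ended for chow mannitol in the authors' deposited values (2.00, adjusted p = 0.0867) and for sucrose mannitol with normexp background correction (0.49, adjusted p = 0.0598). Normexp, which adds an offset of 50 to every signal, gave 0.49 to 0.99 over the 4 comparisons.

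Adamts9, a relative that also cuts proteoglycans and is expressed in the developing and adult heart, was well above background on all 30 arrays. Its group means lay between 0.27 (chow non-perfused, SD 0.28) and 0.40 (sucrose non-perfused, SD 0.19), and its 30 values between -0.03 and 0.72. The perfused groups lay inside the range of the non-perfused hearts but for sucrose mannitol replicate 1, the highest array. The 4 perfusion changes were 0.01, 0.04, -0.04 and -0.04 (SE 0.13, adjusted p from 0.895 to 0.980 in limma). The 95% intervals of these changes lay between -0.31 and 0.31, which is far below the changes of Adamts1 and Adamts4 on the same arrays. No gap between neighbouring groups in the order of its levels exceeded their SD.

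Thbs1 encodes thrombospondin-1, which binds CD36 and CD47 and activates latent TGF-beta. No non-perfused array was well above background for it, and the measured values were -7.61, -5.44, -7.05, -7.36 and -7.77 in chow and -5.52, -7.12, -7.66, -7.76 and -6.07 in sucrose hearts. The highest 3 of these 10 values, -5.44, -5.52 and -6.07, came from 3 of the 4 arrays with noisy control spots. With mannitol the values were -4.75, -4.69, -3.93, -3.67 and -5.23 in chow and -5.29, -4.71, -4.76, -2.75 and -4.00 in sucrose hearts, all above background. With glucose they were -5.05, -4.25, -4.39, -3.77 and -3.73 in chow hearts (3 of 5 above background) and -4.16, -3.99, -5.54, -4.62 and -5.09 in sucrose hearts (4 of 5). Perfused and non-perfused arrays overlapped in the last comparison alone, where sucrose glucose replicate 3 (-5.54) was just below sucrose non-perfused replicate 1 (-5.52). The non-perfused level has only an upper bound. Perfused means lay 2.98-fold and 3.45-fold above that bound in chow and 2.71-fold and 2.08-fold in sucrose hearts, for mannitol and glucose. These folds set the perfused mean against the lowest signal well above background, or the probe's own where higher, on each non-perfused array. The glucose means include arrays not above background, and sampling error is left out, so the folds are no strict lower bounds. The fitted changes were 2.60, 2.81, 2.52 and 2.15 (SE 0.49), with adjusted p of 0.000571, 0.000187, 0.000772 and 0.0042. Without the 4 noisy arrays they were 3.00, 3.21, 3.13 and 2.83. Normexp reduced them to 0.62, 0.74, 0.66 and 0.51, with adjusted p of 0.088, 0.0263, 0.0566 and 0.186, which ended 3 of the calls, and the authors' deposited values gave 4.51, 4.42, 3.84 and 3.45, all called.

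Thbs2, which encodes thrombospondin-2, an inhibitor of vessel growth made mainly by fibroblasts, changed much less. Its levels ran from -1.37 to -0.90 in chow non-perfused and from -1.35 to -0.91 in sucrose non-perfused hearts. Perfused chow hearts ran from -1.19 to -0.65 with mannitol and from -0.93 to -0.51 with glucose. Perfused sucrose hearts ran from -0.97 to -0.42 and from -0.84 to -0.48. The ranges were separate for sucrose glucose alone. Thbs2 rose 1.34-fold in chow and 1.33-fold in sucrose hearts perfused with glucose (0.42 and 0.41, SE 0.12, adjusted p = 0.0172 and 0.0209 in limma). With mannitol it was 0.25 higher in chow (adjusted p = 0.219) and 0.33 higher in sucrose hearts (adjusted p = 0.0678), neither of which passed the test. Whether glucose and mannitol differed was tested directly, and the difference was 0.17 in chow (95% interval -0.07 to 0.40) and 0.09 in sucrose hearts (-0.15 to 0.32). Both calls ended with normexp (adjusted p = 0.117 and 0.122), in the authors' values (0.75 and 0.474) and without the noisy arrays and the lone array (0.0526 and 0.0661). They also ended without single arrays: chow non-perfused replicate 5 (0.0625) or chow glucose replicate 5 (0.0587) in chow, and sucrose non-perfused replicate 4 (0.0709) or 5 (0.0555) or sucrose glucose replicate 3 (0.0619) in sucrose. In contrast, the sucrose mannitol difference passed without sucrose mannitol replicate 3 (0.38, adjusted p = 0.0468), without sucrose non-perfused replicate 1 (0.37, adjusted p = 0.05 after rounding) and with the filter on all 30 arrays (0.33, adjusted p = 0.0491).

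**Figure D2:**
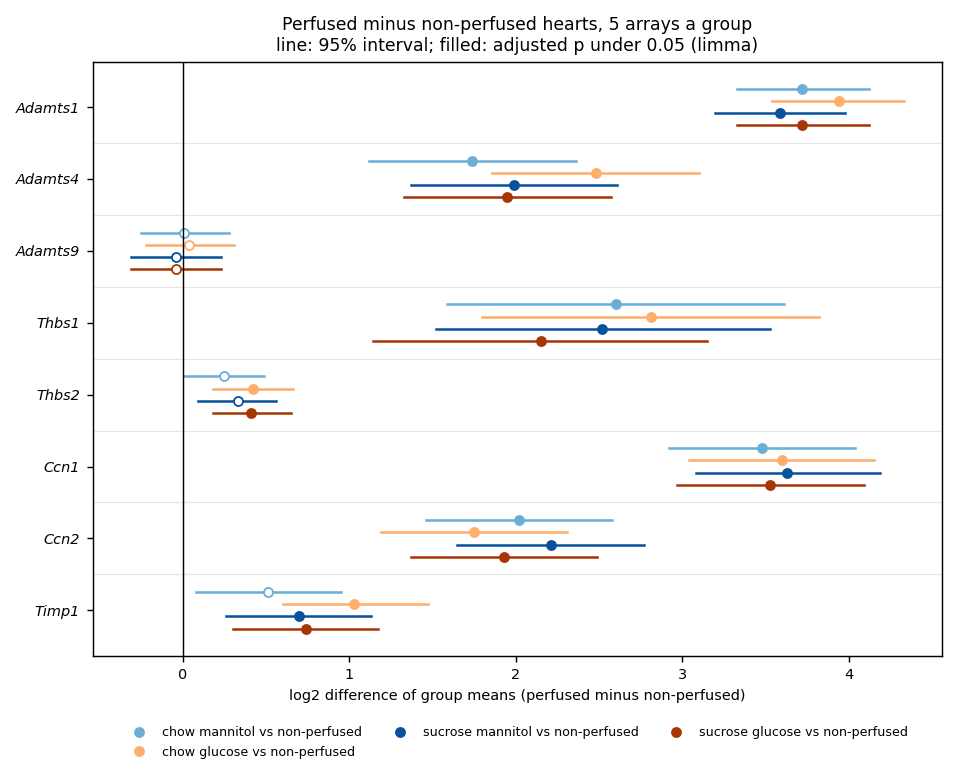
Change of each of the 8 genes on perfusion (log2 difference of group means, perfused minus non-perfused) in the 4 comparisons, with 95% intervals of the limma fit and filled points where the adjusted p was under 0.05. Adamts1 and Ccn1 lie between 3.48 and 3.94, Adamts4, Thbs1 and Ccn2 between 1.74 and 2.81, Timp1 and Thbs2 at or below 1.03, and Adamts9 between -0.04 and 0.04.

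Ccn1 (also Cyr61), an integrin-binding matricellular protein and immediate-early gene product, rose about as much as Adamts1. Chow non-perfused hearts had levels of 1.05, 1.03, 2.60, 1.11 and 1.11. Mannitol hearts had 5.14, 5.21, 4.64, 5.04 and 4.26, and glucose hearts 5.14, 4.83, 5.05, 5.10 and 4.75. Replicate 3 of the chow non-perfused hearts stood apart from the other 4, yet every perfused chow heart was above it. Sucrose non-perfused hearts had 1.86, 0.58, 1.16, 1.55 and 0.56, mannitol hearts 5.01, 4.81, 4.47, 4.80 and 4.79, and glucose hearts 4.97, 4.26, 4.97, 4.94 and 4.21. The groups did not overlap, and replicates 2 and 5 were the lowest of the glucose hearts. Ccn1 rose 11.1-fold and 12.1-fold in chow and 12.4-fold and 11.5-fold in sucrose hearts (3.48, 3.60, 3.63 and 3.53, SE 0.27, adjusted p at most 4.54e-10). Without chow non-perfused replicate 3 the chow changes were 3.78 and 3.90. Within slides the difference ran from 2.10 to 4.22, above 0 on every slide in every comparison.

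Ccn2 (also Ctgf), which acts beside TGF-beta in fibrosis, rose less. Its levels were 0.95, 1.18, 1.34, 1.03 and 0.32 in chow non-perfused, 3.01, 3.13, 3.11, 3.04 and 2.62 in chow mannitol and 2.60, 3.15, 2.84, 1.98 and 2.99 in chow glucose hearts. They were 1.31, 0.48, 0.32, 1.92 and 0.31 in sucrose non-perfused, 3.01, 3.64, 3.04, 3.09 and 2.62 in sucrose mannitol and 2.50, 2.40, 2.86, 3.36 and 2.87 in sucrose glucose hearts. Perfused hearts lay above the non-perfused hearts of their diet in every case, most narrowly in sucrose hearts, where non-perfused replicate 4 (1.92) came nearest to glucose replicate 2 (2.40). Ccn2 rose 4.05-fold and 3.36-fold in chow (2.02 and 1.75) and 4.62-fold and 3.81-fold in sucrose hearts (2.21 and 1.93), with an SE of 0.27 and adjusted p of at most 3.72e-05. The mean change with mannitol was above that with glucose in both diets, but the difference between the sugars did not pass the test. Glucose minus mannitol was -0.27 in chow (95% interval -0.83 to 0.29) and -0.28 in sucrose hearts (-0.84 to 0.28).

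Timp1, the inhibitor of metalloproteinases, rose in 3 of the 4 comparisons. Chow non-perfused hearts had levels of 1.01, 0.55, 1.21, 0.87 and 0.48, mannitol hearts 1.12, 1.44, 1.52, 1.62 and 0.98, and glucose hearts 1.22, 1.93, 1.73, 2.65 and 1.75. Glucose hearts only just cleared the non-perfused hearts (1.22 against 1.21), and mannitol hearts overlapped them. In sucrose hearts the levels were 0.71, 0.90, 1.52, 0.66 and 0.47 without perfusion, 1.38, 1.78, 1.29, 1.86 and 1.42 with mannitol and 1.93, 1.36, 1.51, 1.66 and 1.47 with glucose. Non-perfused replicate 3, at 1.52, was the array that overlapped both perfused sucrose groups. Timp1 rose 2.04-fold in chow glucose hearts (1.03, SE 0.21, adjusted p = 0.00124), 1.62-fold in sucrose mannitol hearts (0.70, adjusted p = 0.0309) and 1.67-fold in sucrose glucose hearts (0.74, adjusted p = 0.0259). In chow mannitol hearts it was 1.43-fold higher without passing (0.51, adjusted p = 0.157). Within slides, 1 of 4 slides had no difference above 0 in each comparison other than chow glucose. Both sucrose calls ended without the 4 noisy arrays (0.55 and 0.56, adjusted p = 0.231 and 0.219), in the authors' values (0.148 and 0.058) and when the compared groups were fitted alone (0.0717 and 0.0511). The mannitol call ended without the filter too (0.0534). Both also ended without sucrose non-perfused replicate 1, 4 or 5, the mannitol call without sucrose mannitol replicate 2 or 4, and the glucose call without sucrose glucose replicate 1 or 4 (adjusted p from 0.0561 to 0.0992).

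**Figure D3:**
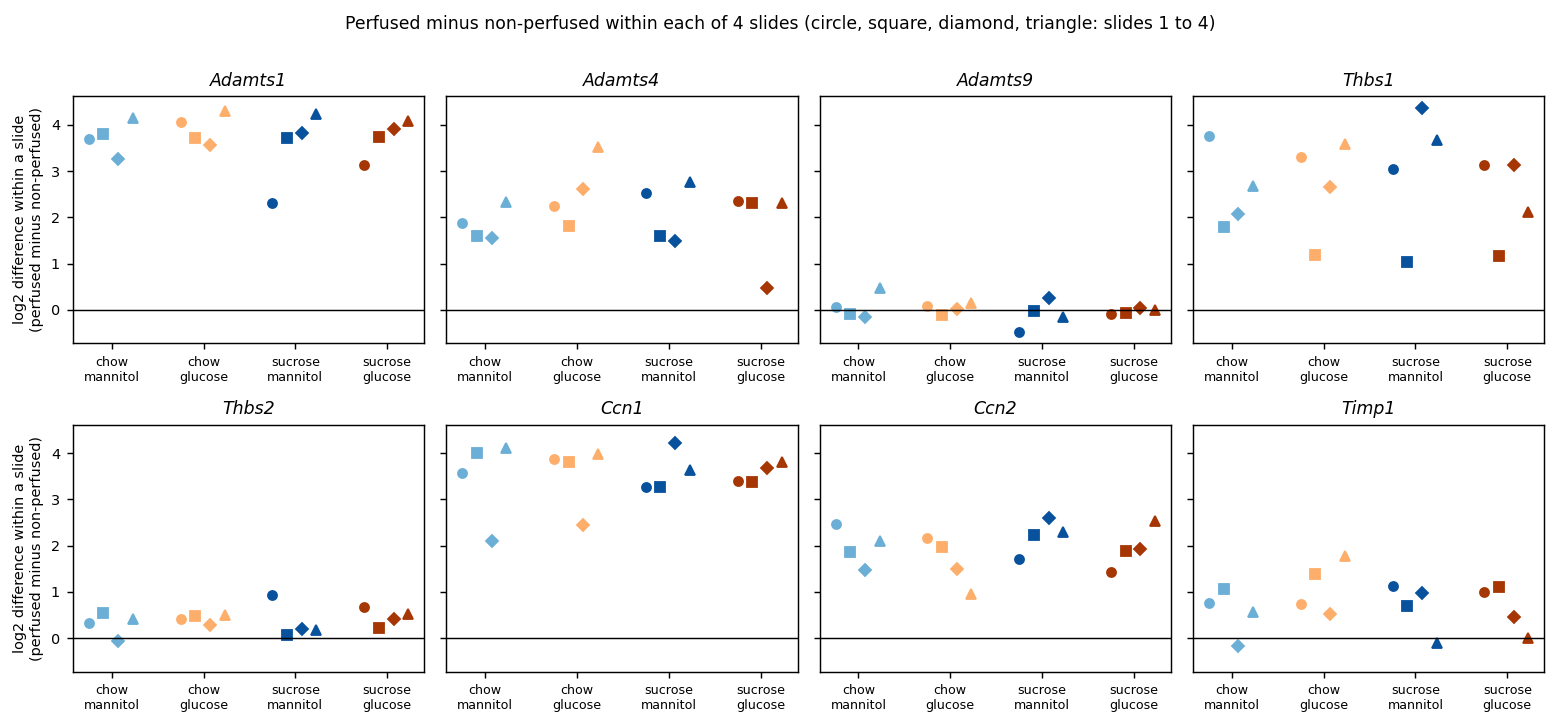
Difference between perfused and non-perfused hearts within each of the 4 slides that carried all 6 groups (log2, mean of the perfused arrays minus mean of the non-perfused arrays of that slide), for the 8 genes and 4 comparisons. Every slide lies above 0 for Adamts1, Adamts4, Thbs1, Ccn1 and Ccn2, and the slides scatter around 0 for Adamts9.

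The sugar in the buffer made no detectable difference to the 8 genes. In the comparison of glucose with mannitol hearts, which asks whether glucose itself alters transcript levels, 0 of 8 passed in chow and 0 of 8 in sucrose hearts, and 0% and 0.00545% of all genes did. Averaged over both diets 0 of 8 passed, against 0.00545% of all genes. At an unadjusted p under 0.05 limma gave 715, 928 and 658 genes in these comparisons, and 2, 0 and 0 of the 8. The 2 were Adamts4, 0.74 higher with glucose in chow hearts (SE 0.30, 95% interval 0.12 to 1.36, adjusted p = 0.999), and Timp1, 0.52 higher (SE 0.21, 95% interval 0.09 to 0.96, adjusted p = 0.999). The glucose and mannitol arrays overlapped for both genes, and the sign held on 4 of 4 slides for Adamts4 and 3 of 4 for Timp1. Row on the slide and sugar cannot be told apart in chow hearts. In sucrose hearts the same differences were -0.04 (95% interval -0.66 to 0.58) and 0.04 (-0.39 to 0.48). Whether the sugar difference itself depended on the diet was tested by interaction, which gave -0.78 for Adamts4 (SE 0.43, adjusted p = 0.998) and -0.48 for Timp1 (SE 0.30, adjusted p = 0.998). Row enters this interaction as well, since the mannitol groups of the diets lay mostly in different rows.

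The diet made no detectable difference either. Sucrose against chow, which asks what the diet does in each state of the heart, gave 0 of 8 genes in non-perfused hearts (0% of all genes), 0 of 8 with mannitol (0.00545% of all genes) and 0 of 8 with glucose (0% of all genes). Thbs1 was above background on no non-perfused array and Adamts4 on 1 of 5 in each diet. For these genes the non-perfused comparison can hardly show a difference. With mannitol, row and diet can hardly be told apart: every chow array lay in row 1 and 4 of 5 sucrose arrays in row 2. Limma gave 612, 1455 and 804 genes at an unadjusted p under 0.05, and 0, 0 and 1 of the 8. That one was again Adamts4, which was 0.84 lower in sucrose than in chow glucose hearts (-0.84, SE 0.30, 95% interval -1.46 to -0.22, adjusted p = 0.999). It was lower on all 4 slides (-1.84 to -0.35), and both groups lie in row 2, but sucrose glucose replicate 1, at -2.87, overlapped the chow hearts. In no comparison of sugars or diets did the arrays of the higher group all lie above the others for any of the 8 genes. They did, in the direction first minus second, for 0.322% (chow) and 0.584% (sucrose) of all genes between sugars. Between diets the share was 0.240% in non-perfused, 0.502% in mannitol and 0.475% in glucose hearts. For Adamts1 the diet differences were 0.05 in non-perfused (95% interval -0.34 to 0.44), -0.08 in mannitol (-0.48 to 0.31) and -0.16 in glucose hearts (-0.56 to 0.23). Intervals were widest for Thbs1, up to -1.45 to 0.57 with glucose, so a difference of more than 2-fold between the diets could have been missed for that gene. The same holds for Adamts4 with glucose, whose interval reached -1.46.

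The perfusion response did not detectably differ between the diets for any of the 8. The interaction of diet with mannitol perfusion, of diet with glucose perfusion and of diet with sugar each gave 0 of 8 genes, and 0% of all genes in each. The interactions that use the mannitol groups can hardly be told apart from row on the slide. Over the 8 genes the differences in response (sucrose minus chow) ran from -0.13 to 0.25 with mannitol and from -0.66 to 0.18 with glucose. The 0.25 was that of Adamts4 and the -0.66 that of Thbs1. The non-perfused signals of these genes were mostly or all not above background, so their responses are poorly measured. Without them the differences ran from -0.13 to 0.19 with mannitol and from -0.30 to 0.18 with glucose. Among the 5 genes that rose throughout, the tightest bound was that of Adamts1, whose response differed by -0.13 with mannitol (95% interval -0.69 to 0.42) and by -0.21 with glucose (-0.77 to 0.34), beside responses of 3.59 to 3.94. At an unadjusted p under 0.05 there were 1131, 481 and 918 genes in limma and 0 of the 8.

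**Figure D4:**
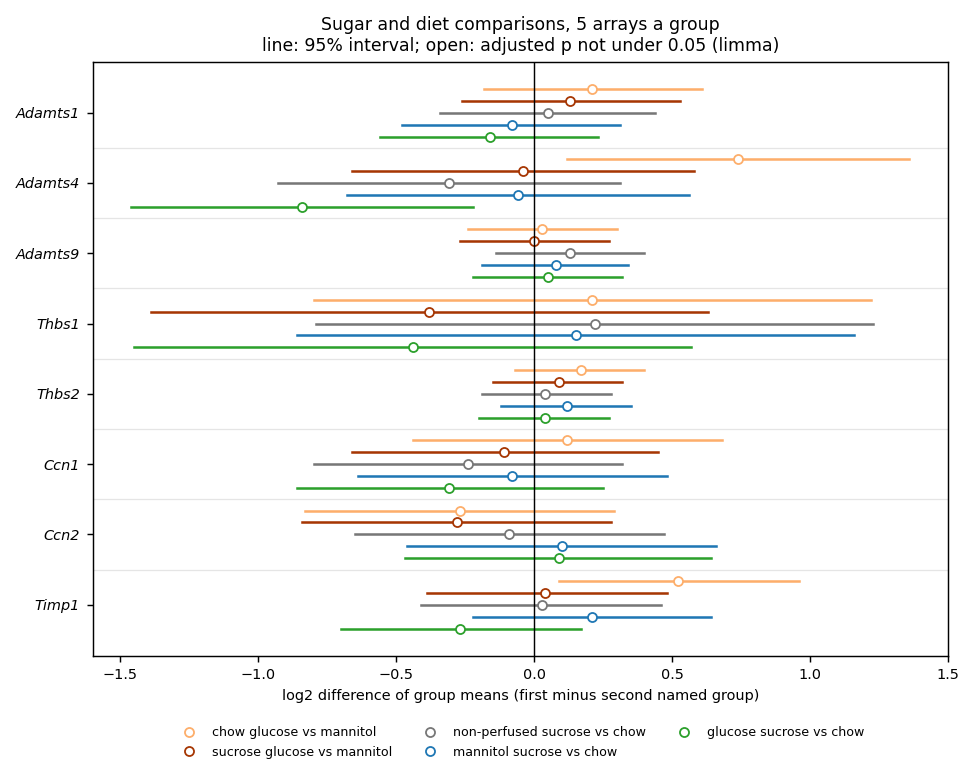
Differences between sugars and between diets for the 8 genes (log2 difference of group means with 95% intervals of the limma fit, first minus second named group). All points are open, as none passed an adjusted p of 0.05, and the intervals of 3 differences leave out 0: Adamts4 and Timp1 for chow glucose against mannitol, and Adamts4 for sucrose against chow with glucose.

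The order of the group levels was the same in outline for the 5 genes that rose throughout: all 4 perfused groups stood above both non-perfused groups. The gap between the lowest perfused and the highest non-perfused mean was 3.59 for Adamts1, 3.29 for Ccn1, 1.75 for Ccn2 and 1.64 for Adamts4, in each case more than the SD of the adjoining groups. No gap is given for Thbs1, whose non-perfused level has only an upper bound. Inside the perfused and inside the non-perfused groups, neighbours in the order differed by less than their SD, with 1 exception, chow glucose above chow mannitol for Adamts4 (0.74 against an SD of 0.46). For Timp1 the gap between chow mannitol and sucrose non-perfused hearts (0.49) exceeded the SD of 0.40, and for Thbs2 no gap exceeded the SD of its neighbours.

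Hearts of one group also differed from each other, and some of these deviations were shared between the genes. After the group means were subtracted, the correlation over the 30 arrays was 0.51 between Adamts1 and Ccn1, 0.51 between Adamts1 and Adamts9, 0.48 between Thbs2 and Timp1, 0.45 between Adamts1 and Ccn2, 0.44 between Ccn1 and Ccn2 and 0.42 between Adamts4 and Thbs1. The lowest was -0.38, between Adamts9 and Thbs2. These are descriptions, and arrays share slides: with the slide means removed too, the values were 0.57, 0.42, 0.48, 0.45, 0.54, 0.36 and -0.49 in the same order. Chow mannitol replicate 5 was the lowest of its group for 7 of the 8 genes, all but Thbs2.

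The genes whose levels tracked each member most closely over the 30 arrays were sought among 11303 other tested genes with a symbol. All arrays together, the perfused arrays lie apart from the non-perfused ones, so that any gene with a large rise correlates highly: Atf3, Ier5 and Ifrd1 with Adamts1, and Ier2, Nr4a1 and Junb with Ccn1, each at a Pearson r of 0.99. Nr4a1, Atf3 and Ier2 were closest to Ccn2 (0.93), Il6, Cebpd and Errfi1 to Adamts4 (0.93 to 0.95) and Stc1, Tagln2 and Stat3 to Thbs1 (0.89 to 0.90). Lmna, Myd88 and Plod2 were closest to Timp1 (0.88 to 0.90), Has1, Plod2 and Anxa1 to Thbs2 (0.81 to 0.82), and Ndufs7, Opa1 and Acot13 to Adamts9 (0.65 to 0.72). After the group means were subtracted, the closest were Atf3, Btg2 and Abra for Adamts1 (0.75 to 0.77) and Fos, Junb and Ier2 for Ccn1 (0.83 to 0.86). Il6, Sele and Nfkbia came closest to Adamts4 (0.65 to 0.73), Stc1, Stat3 and Or2f2 to Thbs1 (0.66 to 0.70), and Ltbp2, Bex1 and Ehbp1l1 to Ccn2 (0.68 to 0.71). For Timp1 they were Pla2g2c, Myd88 and Lmna (0.81), for Thbs2 Pi16, Emp1 and Lrrc17 (0.65 to 0.72), and for Adamts9 Rapgef2, Ndufs7 and Snrpb2 (0.68 to 0.75). The arrays share slides and scaling, and no test was made of these values.

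Among the relatives of the 8 genes no rise passed the test, in lists too short for that count to stand apart from the 4.83% to 5.54% of all genes that rose. Of 7 tested genes among 21 other ADAMTS and ADAMTS-like genes, none rose, and 1 fell in chow mannitol hearts, Adamts15, a proteoglycan-cutting protease (-0.74, SE 0.21, adjusted p = 0.0286). Its changes in the other comparisons were -0.64, -0.46 and -0.42, none of which passed. Of 7 tested genes among 10 other thrombospondins, CCN proteins and TIMPs, none rose. Timp4, the inhibitor most abundant in heart, fell with mannitol in both diets (-0.66 and -0.63, SE 0.17, adjusted p = 0.0105 and 0.0142) and was -0.31 and -0.50 with glucose without passing. Timp2 fell in chow mannitol hearts (-0.33, SE 0.10, adjusted p = 0.0411). Thbs4, Comp, Ccn3, Ccn5 and Timp3 did not pass in any comparison. The median change of the other ADAMTS genes was between -0.06 and 0.17 and that of the other thrombospondins, CCN proteins and TIMPs between -0.66 and -0.04.

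Substrates, receptors and enzymes of the same matrix mostly did not pass the test, and neither did most other genes. Of all genes tested, 8.49% to 11.2% rose or fell in each of the 4 comparisons, and 3.24% rose in all 4. Of 15 tested metalloproteinases and ADAM sheddases, 1 rose (Adam15 in sucrose mannitol hearts, 0.23) and 1 fell (Adam19 in sucrose glucose hearts, -0.66), both named after their values were seen. Among 11 tested matrix substrates of ADAMTS proteases, the proteoglycan gene Lum rose in all 4 comparisons, 1.42- to 1.52-fold (SE 0.14). Dcn, another small proteoglycan, rose with both sugars in sucrose hearts (0.39 and 0.33), and Fmod fell in chow glucose hearts (-0.98). Versican itself did not pass. Among 14 tested receptors of thrombospondins, CCN proteins and Timp1, Sdc4, a heparan sulphate co-receptor of integrins, rose 1.95- to 2.21-fold (SE 0.15), and Itga5, the integrin chain that binds fibronectin, rose 1.63- to 1.76-fold (SE 0.13), in all 4 comparisons. Itga6 fell in both sucrose comparisons (-0.44 and -0.38).

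Some genes of the pathways that the 8 genes are best known to feed or answer to rose as well. Tgfb1, which encodes the growth factor that thrombospondin-1 activates, rose 1.49- to 1.71-fold (SE 0.09) and without overlap in all 4 comparisons. The gene of the inhibitory Smad7 rose in sucrose mannitol hearts (0.65). Other genes of TGF-beta signalling did not pass in any of the 4 comparisons, among them Tgfb2, Tgfb3, Tgfbr1, Tgfbr2, Tgfbr3, Smad2 and Smad4. These too were named after their values were seen. The counts that follow are for mannitol and glucose in chow and then in sucrose hearts, where 4.83%, 5.47%, 5.53% and 5.54% of all genes rose. Among 13 tested YAP and TEAD targets other than Ccn1 and Ccn2, 4, 4, 3 and 5 rose and none fell. Over quantile and median scaling, normexp and the authors' values the lowest counts were 2, 1, 1 and 2. Nuak2, a kinase gene, rose 1.99- to 2.64-fold (SE 0.18), Amotl2, which encodes an inhibitor of YAP, 1.39- to 1.71-fold (SE 0.12), and the growth arrest gene Gadd45a 1.39- to 1.63-fold (SE 0.15). Lats2 rose in all but sucrose mannitol hearts (0.23 to 0.27), and F3 in sucrose glucose hearts (0.89). Among 16 tested SRF and MRTF targets 3, 4, 3 and 4 rose and none fell, with Actg1, a cytoplasmic actin gene, up 1.92- to 2.41-fold (SE 0.11) and Zyx, a focal adhesion gene, up 1.39- to 1.67-fold (SE 0.12) throughout. The lowest counts over the same settings were 1, 1, 2 and 1. Srf rose in both chow comparisons, Flna in all but chow mannitol hearts and Cnn1 in sucrose glucose hearts. The median change lay between 0.15 and 0.29 for YAP and TEAD targets and between 0.06 and 0.19 for SRF and MRTF targets. Smad7, Lats2, F3, Srf, Flna, Cnn1, Dcn, Fmod and Itga6 were named after their values were seen.

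**Figure D5:**
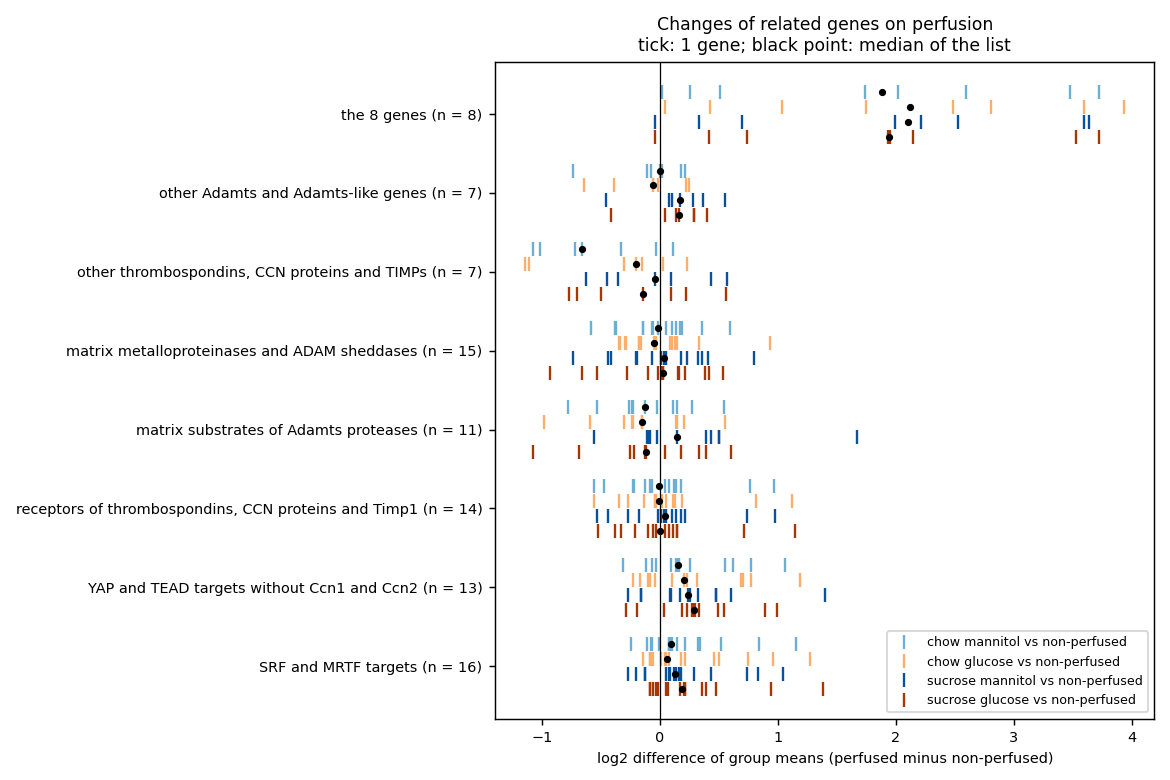
Changes on perfusion (log2 difference of group means, perfused minus non-perfused) of the 8 genes and of the tested genes of 7 related lists, each tick 1 gene and each black point the median of a list in 1 of the 4 comparisons. The medians of the 8 genes lie between 1.88 and 2.12, while those of the other lists lie between -0.66 and 0.29. The medians of the 8 include Adamts4 and Thbs1, whose non-perfused signals were mostly or all not above background. The 8 genes and the lists were chosen with earlier results of these data known.

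Markers of cell types moved with perfusion to different extents. Of 6 red cell markers 5 fell in every comparison, and their summed linear level (1 being the 75th percentile) was 559 to 913 on non-perfused and 5.98 to 98.7 on perfused arrays. Of 4 tested platelet markers, from cells that store thrombospondin, 2 fell in each chow and 1 in each sucrose comparison. Clec1b fell in all 4 and was well above background on 7 of 10 non-perfused and 1 of 20 perfused arrays. The non-perfused Clec1b mean includes arrays not above background. It was 4.79-fold and 3.11-fold above an upper bound of the perfused level in chow hearts, for mannitol and glucose. In sucrose hearts with glucose it was 3.65-fold above that bound. The neutrophil genes S100a8 and S100a9 fell in all 4 comparisons, out of 5 tested neutrophil markers. S100a8, S100a9 and Clec1b were bright enough to be tested only through non-perfused groups, where they are high. Their fall is therefore partly set by that filter. Fibroblast markers, from the cells that make most ventricular matrix, had summed levels of 84.5 to 115 without and 87.3 to 124 with perfusion, and 1, 2, 2 and 2 of 7 rose, Lum in each. Of 8 endothelial markers 1 rose, the tight junction gene Cldn5 (2.73- to 4.21-fold), and their summed level was 41.5 to 53.8 without and 44.1 to 62.4 with perfusion. Cardiomyocyte (2210 to 4210 over all arrays) and smooth muscle and pericyte markers (19.7 to 26.3) overlapped between states, 1 cardiomyocyte gene, Pln, fell in sucrose mannitol hearts, and 1 smooth muscle gene, Cnn1, rose in sucrose glucose hearts. Of 6 macrophage markers 3 rose in each sucrose and 0 in each chow comparison, and the mesothelial marker Wt1 rose in all 4 (1.84- to 2.00-fold), 1 of 3 tested. In these 4 comparisons 4.83% to 5.54% of all genes rose and 3.14% to 5.67% fell. The interactions of diet with mannitol and with glucose perfusion gave 0% of all genes. The unequal marker counts therefore do not show that the response differed between the diets, nor that it was equal. The part of these cell types in the rises of the 8 genes was not tested.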

How the data were processed

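The files are one-colour Agilent Feature Extraction tables of 30 arrays (62976 spots, 58717 of them no controls). The intensity used is the processed signal, from which background and spatial trend had been removed per the file headers. The headers name version 11.0.1.1 and the submitters' processing notes version 10.3. The authors' deposited series table of log2 values was an alternative. Its scaling between arrays and its empty cells (119283) are the authors', with column medians of 7.23 to 7.24, and it followed the log2 signal of each array (smallest correlation 0.9985).

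Outlier spots were left out unless all spots of a probe were outliers (264 cases), spots of a probe were averaged, and log2 minus the 75th percentile of the array was taken. RefSeq accessions named 18355 of 30367 probes (60.4%), on the GRCr8 assembly. The brightest probe stood for a gene, and a gene entered the test if 4 of the 5 arrays of any group were well above background, which removed 8452. No probe was saturated. Limma 3.58.1 in R 4.3.3 fitted 6 group means and 13 comparisons (median total degrees of freedom 26.3), and its settings were tested on simulated data. The number of arrays limits the precision.

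The 8 genes and the lists were chosen with earlier results of these data known. Besides the 8, the text names each called relative, the 4 largest of each list called in all 4 perfusion comparisons, any list gene called for sugar or diet (there were none) and the 3 closest genes of each member; other list genes were named after their values were seen. Replicate numbers do not pair the arrays: residuals of equal numbers had a mean correlation of -0.037, other numbers 0.01. The list of TGF-beta signalling genes is not reported here as a list.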

Additional observations from a re-analysis of the deposited data

Results flagged for a closer look

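Of 46 combinations of gene and group with a measured level, 2 had 1 array far from the other 4, where chance alone gives about 1 in 20. In chow non-perfused hearts, replicate 3 had a Ccn1 level of 2.60, while the other 4 lay between 1.03 and 1.11, so the gap made up 0.951 of the range of the group (critical value 0.71). That array was also the highest of its group for Adamts1, Ccn2 and Timp1. In chow mannitol hearts, replicate 5 had a Ccn2 level of 2.62, with the others between 3.01 and 3.13, a gap of 0.767 of the range. That array was the lowest of its group for 7 of the 8 genes. Without it the chow mannitol change of Ccn2 was 2.11, against 2.02 with it. No cause was tested.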

How the results depend on the processing

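Calls of Adamts1, Ccn1 and Ccn2 were kept under every alternative in all 4 perfusion comparisons, and no called value of the 8 genes changed sign. Scaling was varied (quantile, or the median over 13789 always detected probes), as were background (normexp), the authors' values, the filter (none, or detection on every one of 30 arrays) and averaging over probes. The model was varied by slide blocks (correlation 0.211), the replicate block, the compared groups alone, trended robust variances and array weights (0.448 to 2.373), and single arrays, the lone one included, were omitted. The omission of the 4 noisy arrays, with or without the lone one, was added once their control spots had been looked at. The filter on all 30 arrays gave 3 of the 8 genes in chow mannitol hearts, since Adamts4 and Thbs1 were not tested under it. Leaving out each array gave 5 to 5 and 6 to 7 of the 8 genes for mannitol and glucose in chow hearts, 5 to 7 and 5 to 7 in sucrose hearts, and 0 to 0 in each of the other 9 comparisons. The replicate block gave 5, 7, 6 and 7 and changed no count of the 8 genes, though equal numbers do not pair the arrays, with 1419, 1632, 1898 and 1467 genes against 1556, 1742, 2054 and 1592. Counts of all genes fell to 843, 969, 967 and 848 with normexp and to 361, 421, 413 and 447 in the authors' values, where 86.1%, 72.0%, 88.9% and 91.7% were rises, against 56.9%, 57.5%, 49.4% and 63.8%; with normexp 70.4% were rises in chow glucose hearts. In sucrose mannitol hearts the count was 1088 when fitted alone, 1270 without the noisy arrays and 1034 without these and the lone array. The authors' values moved the median change of all genes by over 0.1 in sucrose glucose perfusion (0.106), chow glucose against mannitol (-0.139), non-perfused sucrose against chow (-0.116), and the interactions of diet with glucose perfusion (0.197) and with sugar (0.171). Of 128 counts of rises in related lists 29 moved by over 1.5 times or to or from 0 (over quantile and median scaling, normexp and the authors' values), and of 128 list medians 2 moved by more than the typical SE of a member. The single genes called for sugar or diet, none of them among the 8, became 0 to 3 under some alternatives. Signal near background limits Thbs1 and Adamts4.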
